A study of Drosophila melanogaster with 36 samples.

Results

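The 10 genes described here are GILT3, Rubicon, Mgstl, Ugt302K1, mthl8, pst, mfr, TrpA1, ppk20 and ppk30, out of 17606 genes in the count table and 12167 that were tested. They were given as genes that mark the H3.3 lysine 36 mutant, and are taken to have been chosen by measured fold changes between its brains and those of its control, although the contrast behind the choice is not recorded. That contrast is therefore given for them as a description, with no test. All 10 passed the filter on low counts, which for some of them was met only in the groups where they were high. Each was then followed over all 12 groups, to see whether the H3.3 mutant, its control or the Set2 mutant departed from the remaining genotypes.

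The samples were brains of wandering third-instar larvae of Drosophila melanogaster raised at 25 °C, profiled by polyA-selected mRNA sequencing. There were 6 genotypes, both sexes and 3 libraries in each of the 12 groups. The mutants were H3.3K36RH3.2HWT, with its control H3.3CtrlH3.2HWT, Set21, with its control yw, and H3.3WTH3.2K36R, with its control H3.3WTH3.2HWT. K36R stands for arginine in place of lysine 36, and the submitters describe the controls as matched for genetic background. The labels do not spell out the alleles behind "Ctrl" and "HWT", and leave unsaid if a group's libraries came from separate animals or from pools, so the p-values measure the spread between these libraries only.

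Histone H3.3 is the H3 variant that is placed into chromatin outside DNA replication, and in Drosophila it is encoded by His3.3A and His3.3B. H3.2 is the replication-coupled form. Set2 is the enzyme that trimethylates lysine 36 of H3 over the bodies of transcribed genes, a mark known for restraining transcription from within genes.

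Depth ran from 82.5 to 143.8 M counted reads per library, with a median of 103.0 M. His3.3A stood at 60.2 to 73.0 CPM in the 12 libraries of both H3.3 genotypes, the control included, and at 239 to 391 CPM in the other 24 libraries, so a low His3.3A level is shared by the H3.3 mutant and its control. Set2 stood at 27.8 to 33.3 CPM in the 6 Set21 libraries and at 160 to 200 CPM in the other 30. CPM is the count scaled to 1 M counted reads with edgeR's TMM factors. Neuronal markers (elav, nSyb, brp, Syt1, para and Appl) summed to between 3625 and 5247 CPM over the 36 libraries, and were lower in Set21 than in yw without overlap (3625 to 4167 against 4561 to 4939 CPM in males, and 4376 to 4655 against 5022 to 5247 CPM in females). Because the tissue is bulk brain, fewer cells of a type and less RNA per cell cannot be told apart in any level below.

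The 10 genes did not behave as one set that marks H3.3K36RH3.2HWT brains. GILT3, Ugt302K1 and pst were high in the H3.3 mutant and also in Set21. mthl8 was high in the H3.3 mutant, while Set21 held only 0.146 to 0.302 CPM of it, which was still above the remaining genotypes. Rubicon was high in the H3.3 mutant alone. Mgstl was low in the H3.3 mutant, and about as low or lower in Set21 and yw. mfr, TrpA1, ppk20 and ppk30 were high in H3.3CtrlH3.2HWT, and the mutant stood at the level of the remaining genotypes. A genotype was said to depart when its 3 libraries lay outside all 9 libraries of yw, H3.3WTH3.2K36R and H3.3WTH3.2HWT of that sex, at least 1.5-fold from the mean of each, in both sexes. By that description 5 genes departed in H3.3K36RH3.2HWT, 4 in H3.3CtrlH3.2HWT and 4 in Set21, all upward, and the counts were the same at 2-fold and with RLE size factors.

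**Figure D1:**
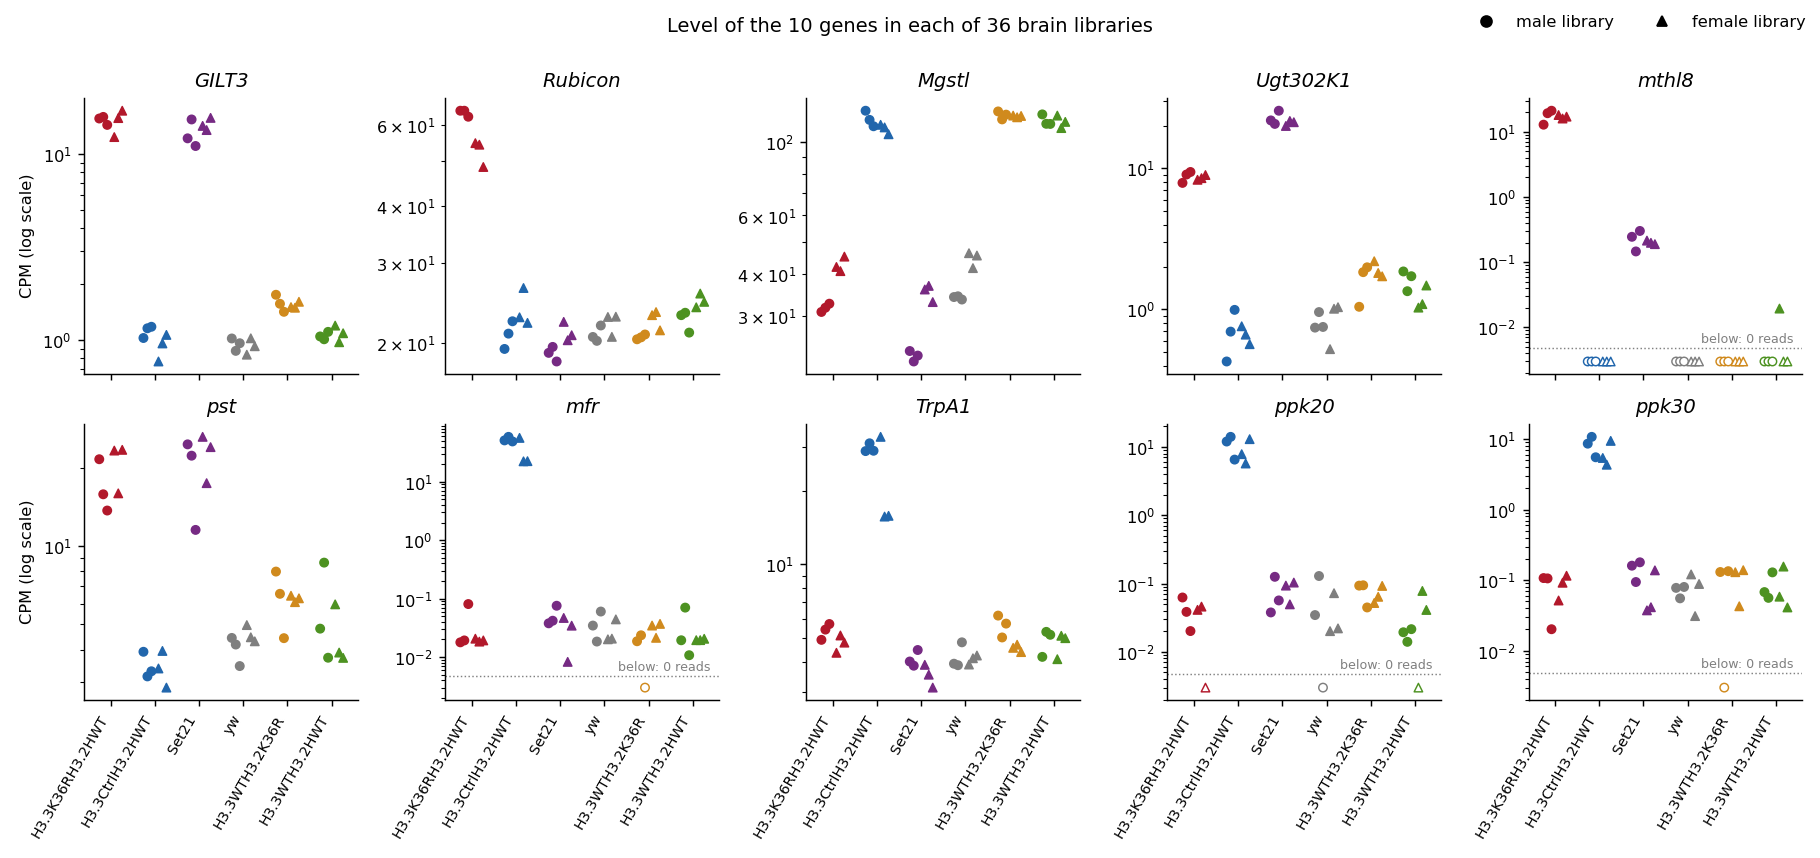
Level of each gene in CPM (y axis, log scale, its own range in each panel) in the 36 libraries, by genotype (x axis); circles are male and triangles female libraries, and open marks below the dotted line are libraries with 0 reads. GILT3, Ugt302K1 and pst are high in H3.3K36RH3.2HWT and Set21, Rubicon and mthl8 in H3.3K36RH3.2HWT, and mfr, TrpA1, ppk20 and ppk30 in H3.3CtrlH3.2HWT. In Set21 mthl8 lies at 0.146 to 0.302 CPM.

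GILT3 (FBgn0039098, arm 3R) encodes a protein of the family of lysosomal thiol reductases, which in mammals reduce disulfide bonds of proteins taken up for degradation. It stood at 15.5, 15.8 and 14.4 CPM in H3.3K36RH3.2HWT males against 1.03, 1.16 and 1.18 in H3.3CtrlH3.2HWT males. In females the values were 12.3, 15.6 and 17.1 CPM in the mutant against 0.767, 0.959 and 1.07 in the control. The groups did not overlap in either sex, and the mutant was higher by 3.76 ± 0.14 (SE) on the log2 scale in males and by 4.02 ± 0.14 in females. Set21 libraries, at 11.1 to 15.7 CPM, overlapped with those of the H3.3 mutant, while yw libraries stood at 0.835 to 1.02 CPM. The H3.2 mutant lay just above the other genotypes, at 1.42 to 1.75 CPM in H3.3WTH3.2K36R against 0.974 to 1.20 in H3.3WTH3.2HWT, with no overlap.

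Ugt302K1 (FBgn0040251, arm 3R) belongs to the UDP-glycosyltransferases, enzymes that attach a sugar to small lipophilic molecules. It stood at 7.89, 9.05 and 9.43 CPM in H3.3K36RH3.2HWT males against 0.428, 0.696 and 0.993 in H3.3CtrlH3.2HWT males. The female values were 8.30, 8.53 and 8.97 CPM in the mutant against 0.759, 0.663 and 0.567 in the control. The mutant thus stood higher by 3.62 ± 0.24 on the log2 scale in males and 3.69 ± 0.24 in females. The order of the genotypes differed from that of GILT3, since Set21 was highest, at 19.99 to 25.6 CPM, and did not overlap with the H3.3 mutant. H3.3WTH3.2K36R libraries, at 1.04 to 2.20 CPM, overlapped with those of H3.3WTH3.2HWT, at 1.03 to 1.86 CPM. The yw libraries, at 0.523 to 1.04 CPM, overlapped with those of H3.3CtrlH3.2HWT. Compared with H3.3WTH3.2HWT, however, H3.3CtrlH3.2HWT was lower without overlap in either sex, at 0.449 times its summed level in males and 0.561 times in females. The fold changes over H3.3CtrlH3.2HWT are thus taken from a low control.

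pst (pastrel, FBgn0035770, arm 3L) is known for its part in resistance of flies to picorna-like viruses. Its libraries varied more than those of the other genes high in both mutants. H3.3K36RH3.2HWT males held 21.6, 15.8 and 13.7 CPM against 3.92, 3.15 and 3.3 in H3.3CtrlH3.2HWT males, and mutant females 23.3, 16 and 23.5 CPM against 3.38, 3.95 and 2.86 in control females. Despite that spread no mutant library reached down to a control library, and the mutant was higher by 2.30 ± 0.30 on the log2 scale in males and by 2.62 ± 0.30 in females. Set21 libraries spanned 11.5 to 26.3 CPM, which takes in the whole range of the H3.3 mutant. The highest library outside these genotypes was an H3.3WTH3.2HWT male at 8.64 CPM.

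mthl8 (FBgn0052475, arm 3L) encodes a member of the methuselah family of G protein-coupled receptors. It was read in H3.3K36RH3.2HWT at 12.9, 19.3 and 21.1 CPM in males and at 18.1, 16 and 17.1 CPM in females, with 5544 and 5281 reads summed over the 3 libraries of each sex. None of the 6 H3.3CtrlH3.2HWT libraries held a single read. Against a floor of 3 reads per library, the mutant was at least 542-fold higher in males and at least 649-fold higher in females. Set21 libraries held 14 to 32 reads each, or 0.146 to 0.302 CPM, against 0 in all 6 yw libraries. That is at least 8.30-fold higher in males and at least 6.39-fold higher in females. Outside these mutants, mthl8 had 2 reads in 1 H3.3WTH3.2HWT female library and 0 in every other library. Its summed level in the H3.3 mutant was 75.2 times that in Set21 in males (exact 95% interval 59.6 to 96.2) and 85.1 times in females (67.1 to 110 by the same method). Such intervals take each read as independent, so they are too narrow where both mates of a pair were counted, and they leave out the spread between libraries.

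Rubicon (FBgn0030055, arm X) is the fly counterpart of the mammalian protein that holds back autophagy and the maturation of endosomes. It stood at 64.6, 64.6 and 62.7 CPM in H3.3K36RH3.2HWT males against 19.4, 20.9 and 22.3 in H3.3CtrlH3.2HWT males. Mutant females held 54.9, 54.4 and 48.6 CPM against 22.7, 26.4 and 22.1 in control females. On the log2 scale the mutant was higher by 1.62 ± 0.06 in males and 1.15 ± 0.06 in females. The other 30 libraries, those of Set21 included, lay between 18.2 and 26.4 CPM, and no genotype among them stood apart. Rubicon and the H3.3 gene His3.3B lie on the same arm with 48 table genes between them.

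Mgstl (FBgn0025814, arm X) encodes a microsomal glutathione transferase, an enzyme of the membrane-bound defence against reactive compounds. Its levels split the 6 genotypes into a low and a high set. H3.3K36RH3.2HWT males held 30.8, 31.7 and 32.6 CPM against 124, 116 and 111 in H3.3CtrlH3.2HWT males, and mutant females 42.0, 40.8 and 45.1 CPM against 112, 110 and 105 in control females. Its log2 fold change was -1.88 ± 0.05 for males and -1.36 ± 0.05 for females. Set21 lay at 21.9 to 36.9 CPM and yw at 33.6 to 46.2 CPM, so the H3.3 mutant stood with these genotypes. H3.3CtrlH3.2HWT, H3.3WTH3.2K36R and H3.3WTH3.2HWT libraries all lay between 105 and 124 CPM. Mgstl departed in none of the 3 genotypes examined. Set21 libraries lay below all those of the remaining genotypes in each sex, but their means were less than 1.5-fold below those of yw. The H3.3 mutant was also within 1.5-fold of yw, and H3.3CtrlH3.2HWT overlapped with H3.3WTH3.2HWT.

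mfr (misfire, FBgn0266757) and TrpA1 (FBgn0035934) lie beside each other on arm 3L, on the same strand. In the gene order 1 tRNA pseudogene stands between them, and it overlaps TrpA1 on the opposite strand. mfr encodes a ferlin that in Drosophila sperm is needed at fertilization, and TrpA1 a cation channel that responds to warmth and irritants. mfr stood at 0.0179, 0.0193 and 0.0807 CPM in H3.3K36RH3.2HWT males against 51.0, 58.6 and 48.9 in H3.3CtrlH3.2HWT males. Female values were 0.0206, 0.0184 and 0.0193 CPM in the mutant against 56.2, 22.3 and 22.5 in the control. All 30 libraries outside the control lay at or below 0.0807 CPM, and an H3.3WTH3.2K36R male library held 0 reads. The control exceeded H3.3WTH3.2HWT in summed reads by 1380.0 times in males (exact 95% interval 807 to 2593) and by 1765 times in females (exact 95% interval 811 to 4809).

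TrpA1 had a level of its own in every genotype, and the control lay above it. H3.3K36RH3.2HWT males held 4.92, 5.42 and 5.71 CPM against 29, 31.2 and 29.1 in H3.3CtrlH3.2HWT males, and mutant females 4.36, 5.13 and 4.79 CPM against 33.2, 15.7 and 15.8 in control females. The 30 libraries outside the control ran from 3.14 to 6.18 CPM. Its log2 fold change in the mutant was -2.48 ± 0.18 for males and -2.18 ± 0.18 for females.

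ppk20 (FBgn0039676) and ppk30 (FBgn0039677) are next to each other on arm 3R, on opposite strands, with no table gene between them. Both belong to the pickpocket family of DEG/ENaC sodium channels, known for roles in touch, taste and salt sensing. ppk20 stood at 0.0625, 0.0385 and 0.0202 CPM in H3.3K36RH3.2HWT males against 12, 14 and 6.52 in H3.3CtrlH3.2HWT males. The female values were 0.0412, 0.0459 and 0 CPM in the mutant against 7.82, 5.71 and 13 in the control. No library outside the control passed 0.129 CPM, and the control exceeded H3.3WTH3.2HWT in summed reads by 609 times in males (exact 95% interval 280 to 1662) and by 218 times in females (125 to 423 by the same method). ppk30 stood at 0.107, 0.106 and 0.0202 CPM in H3.3K36RH3.2HWT males against 8.61, 10.8 and 5.52 in H3.3CtrlH3.2HWT males. Mutant females held 0.0515, 0.0919 and 0.116 CPM against 5.39, 4.33 and 9.42 in control females. Outside the control the highest library of ppk30 was at 0.179 CPM, and the control exceeded H3.3WTH3.2HWT by 104 times in males (exact 95% interval 71.3 to 158) and by 72.7 times in females (49.5 to 112).

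Within the 6 control libraries the members of each adjacent pair kept to a narrow quotient while their levels varied. mfr ran from 22.3 to 58.6 CPM, a 2.62-fold span, and its quotient to TrpA1 from 1.42 to 1.88. ppk20 ran from 5.71 to 14 CPM, a 2.46-fold span, and its quotient to ppk30 from 1.18 to 1.45. The pairs shared some of their high and low libraries. Male replicate 2 was the highest male and female replicate 2 the lowest female for all 4 genes, though for mfr and TrpA1 female replicate 3 was close. They differed in the highest female, which was replicate 1 for mfr and TrpA1 and replicate 3 for ppk20 and ppk30. The members of a pair share a library and its depth, so these quotients are a description.

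**Figure D2:**
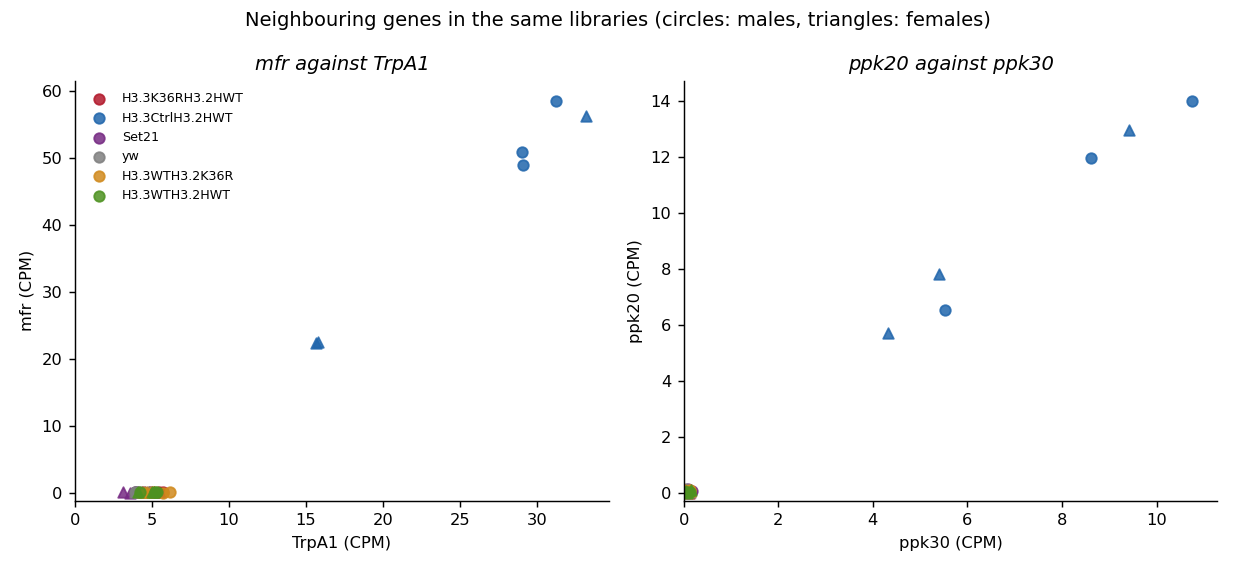
Level of mfr against TrpA1 (left) and of ppk20 against ppk30 (right), both axes in CPM, 1 mark per library, coloured by genotype, with circles for males and triangles for females. The 6 H3.3CtrlH3.2HWT libraries spread along a line in both panels, from 22.3 to 58.6 CPM for mfr and from 5.71 to 14 CPM for ppk20, and the other 30 libraries lie near 0 on the y axis.

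Summed markers of sensory neurons and testis outside the 10 genes overlapped between the H3.3 mutant and its control. The sum of ppk, ppk26, rpk, nan, iav and nompC ran from 11.6 to 15.2 CPM in H3.3K36RH3.2HWT and from 11.8 to 14.8 CPM in H3.3CtrlH3.2HWT, and ppk itself never passed 0.267 CPM in any library. The sum of 10 testis genes ran from 7.03 to 8.21 CPM in the mutant and from 6.01 to 8.09 CPM in the control, with 4 to 5 of the 10 at 0 reads in a group's libraries. Few genes carry these sums. By median over all libraries, rpk led the sensory list at 8.72 CPM, with nompC next at 1.555 CPM. In the testis list mia (4.70 CPM) and can (2.48 CPM) led, with fan next at 0.192 CPM. Against the other genotypes the sensory sum was not at one level: it was 13.3 to 14.8 CPM in H3.3CtrlH3.2HWT males against 9.86 to 11.6 in H3.3WTH3.2HWT males, with no overlap, while females of these genotypes overlapped. It was 11.4 to 13.7 CPM in H3.3WTH3.2K36R and 4.45 to 5.02 CPM in yw. The testis sum was highest in H3.3WTH3.2K36R, at 11.3 to 12.7 CPM. The part of these markers in the levels of mfr, TrpA1, ppk20 and ppk30 was not tested. Tsp66E, which overlaps mfr on the opposite strand, had log2 fold changes of 0.02 ± 0.04 (males) and 0.08 ± 0.04 (females) between the H3.3 mutant and the control (edgeR, adjusted p = 0.83 and 0.34).

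The libraries of Set21 and yw do not enter the contrast taken to have chosen the genes, though the genes were listed with results from all genotypes known, so the calls here are not independent evidence. In Set21 against yw, GILT3, Ugt302K1, pst and mthl8 rose and Mgstl fell in both sexes, 5 of the 10 genes, while 44.6% of all tested genes were called in males and 42.2% in females. By direction, 22.8% of tested genes were higher and 21.9% lower in males, and 20.8% and 21.4% in females. The share called among the 10 is near that background, so the sizes are given. GILT3 rose by 3.75 ± 0.14 (SE) on the log2 scale in males and by 3.96 ± 0.14 in females (edgeR quasi-likelihood test, adjusted p = 3.8e-19 and 1.4e-19). Ugt302K1 rose by 4.80 ± 0.25 and 4.62 ± 0.25 (adjusted p = 5.5e-15 and 1.3e-14 by the same test), the largest change among the genes with reads in yw. pst rose by 2.27 ± 0.29 and 2.30 ± 0.29 (edgeR, adjusted p = 4.4e-07 and 4.5e-07). mthl8 passed in males (edgeR, adjusted p = 1.4e-06) and females (4.6e-06), and its size is the bound above.

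Mgstl fell to 23.5, 21.9 and 22.8 CPM in Set21 males, against 34.1, 34.3 and 33.6 in yw males. In females it stood at 36, 36.9 and 33 CPM in Set21 against 46.2, 41.7 and 45.5 in yw. This is a log2 fold change of -0.58 ± 0.05 for males and -0.33 ± 0.05 for females (edgeR, adjusted p = 4.4e-11 and 1.2e-06), with no overlap in either sex. Rubicon was not called, with -0.14 ± 0.06 in males and -0.07 ± 0.06 in females (adjusted p = 0.063 and 0.415, edgeR), nor were the 4 genes high in the H3.3 control. Hemocyte markers (Hml, NimC1, PPO1, PPO2, vkg and Col4a1) summed to 178 to 248 CPM in Set21 and 68.5 to 94.5 CPM in yw, with 0 of the 6 at 0 reads. The sensory neuron sum, in which rpk has the highest median over all libraries, was 8.0 to 11.6 CPM in Set21 and 4.45 to 5.02 CPM in yw. The sums of glial, ring gland, eye disc, testis, and gut and Malpighian tubule markers were also higher in Set21 than in yw, without overlap in either sex. Those of neuroblasts (lower) and of trachea and cuticle (higher) did not overlap in females, and that of muscle (lower) did not in males. The part of these lists, and of the lower neuronal sum in Set21, in the Set21 results was not tested. In the H3.3 mutant the hemocyte sum was 52.4 to 119 CPM, against 45.7 to 135 CPM in its control, which overlap. Glial markers (repo, moody, alrm and wrapper) summed to 364 to 384 CPM in H3.3K36RH3.2HWT males against 312 to 330 CPM in control males, without overlap, and to 379 to 390 CPM in mutant females against 337 to 403 CPM in control females. The sums of neuroblasts and of trachea and cuticle were lower in mutant males than in control males, also without overlap. In females both of these sums overlapped between the mutant and its control. The part of the glial, neuroblast, and trachea and cuticle lists in the H3.3 results was not tested.

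In the H3.2 mutant the share of the 10 genes called was near the background or below it. GILT3 rose in H3.3WTH3.2K36R by 0.59 ± 0.13 on the log2 scale in males and by 0.50 ± 0.13 in females (edgeR, adjusted p = 0.0013 and 0.0059). Ugt302K1 rose in females by 0.67 ± 0.23 (edgeR, adjusted p = 0.032), while in males the log2 fold change was -0.02 ± 0.23 (adjusted p = 0.97). That is 1 of 10 genes called in males and 2 of 10 in females, where 25.1% and 24.7% of all tested genes were called. GILT3 was not called when only the 6 libraries compared were fitted (adjusted p = 0.054 for males and 0.080 for females). Ugt302K1 was not called with a replicate block (adjusted p = 0.058), nor without replicate 1 of H3.3WTH3.2K36R females (0.12), replicate 1 of H3.3WTH3.2HWT females (0.12) or replicate 2 of H3.3WTH3.2HWT females (0.12).

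**Figure D3:**
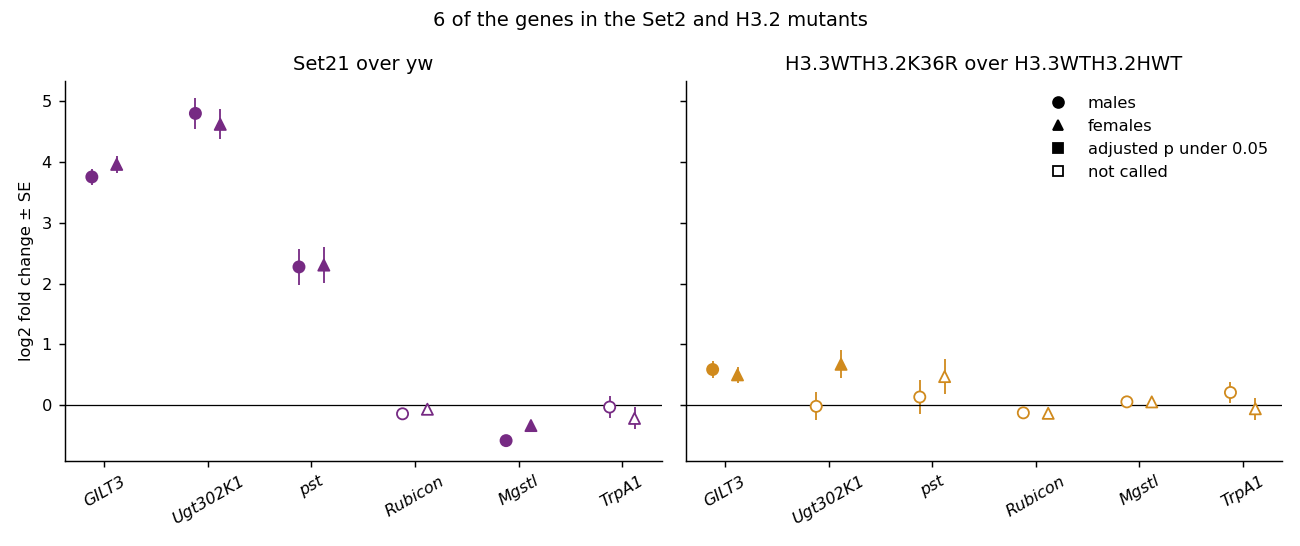
Log2 fold change (y axis) with its standard error for 6 of the genes in Set21 over yw (left) and in H3.3WTH3.2K36R over H3.3WTH3.2HWT (right), with circles for males, triangles for females and filled marks for adjusted p under 0.05. GILT3, Ugt302K1 and pst lie between 2.27 and 4.80 in Set21, and at or below 0.67 in the H3.2 mutant.

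Mgstl and Rubicon differed between the sexes in how far they departed from the control. The deficit of Mgstl in H3.3K36RH3.2HWT was larger in males than in females by 0.53 ± 0.07 on the log2 scale (interaction of -0.53, edgeR, adjusted p = 4.9e-05). The excess of Rubicon was larger in males by 0.47 ± 0.09 (edgeR, adjusted p = 0.012). These were 2 of the 22 genes called in that interaction, which is 0.181% of the genes tested. The interaction shares its libraries with the contrast that chose the genes. The Rubicon call was lost without replicate 2 of H3.3CtrlH3.2HWT females (adjusted p = 0.061), without replicate 1 of H3.3CtrlH3.2HWT males (0.057), without replicate 3 of H3.3K36RH3.2HWT females (0.052) and with only the 12 libraries compared (0.20).

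Mgstl differed between males and females in the genotypes where it was low. Averaged over the 6 genotypes it was lower in males by a log2 difference of -0.22 ± 0.02 (edgeR, adjusted p = 1.9e-10), with 15.8% of tested genes called in that contrast. Within genotypes, a comparison added after the averages had been seen, it was lower in males in H3.3K36RH3.2HWT (-0.43 ± 0.05, adjusted p = 5.6e-07), Set21 (-0.63 ± 0.05, adjusted p = 7.3e-11) and yw (-0.39 ± 0.05, adjusted p = 3.1e-06). The shares of all genes called there were 2.94%, 13.5% and 2.73%. In the genotypes with high Mgstl the log2 difference was 0.10 ± 0.05 in H3.3CtrlH3.2HWT, 0.01 ± 0.05 in H3.3WTH3.2K36R and 0.01 ± 0.05 in H3.3WTH3.2HWT (edgeR, adjusted p = 0.26, 0.94 and 1.00), where 5.14%, 5.17% and 0.6% of all genes were called. The counts behind these shares depend on single libraries in H3.3K36RH3.2HWT (358 genes, 225 without female replicate 3), H3.3WTH3.2K36R (629 genes, 333 without male replicate 3) and H3.3WTH3.2HWT (73 genes, 22 without male replicate 3). Apart from the H3.3 pair, whether genotypes differ in this sex difference was not tested. Rubicon was higher in males in H3.3K36RH3.2HWT by 0.28 ± 0.06 (edgeR, adjusted p = 0.0046), a call lost without female replicate 3 of that genotype (0.065). In the other 5 genotypes its male minus female difference lay between -0.19 and -0.08 and was not called.

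**Figure D4:**
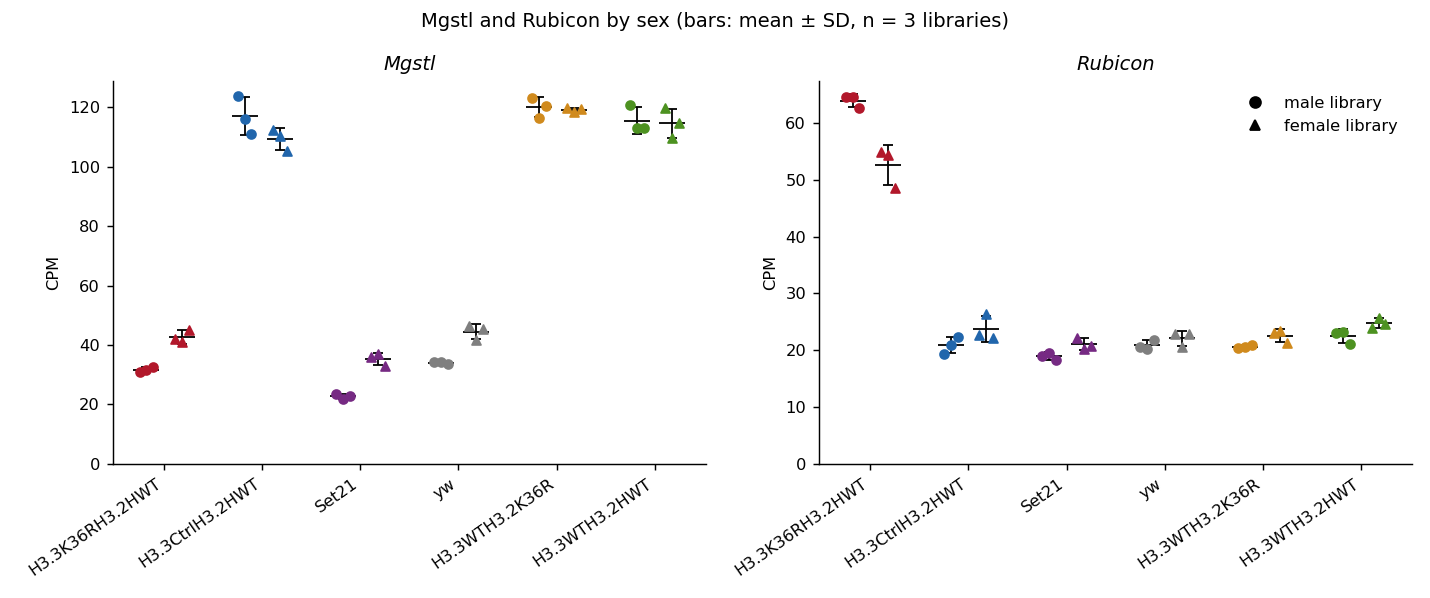
Level of Mgstl (left) and Rubicon (right) in CPM (y axis, from 0) by genotype, with male libraries as circles and female libraries as triangles; bars are mean ± SD of 3 libraries. Mgstl is lower in males in H3.3K36RH3.2HWT, Set21 and yw, and near 105 to 124 CPM in both sexes of the other 3 genotypes, while Rubicon is above 48 CPM in H3.3K36RH3.2HWT alone.

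TrpA1 was near the threshold for a sex difference. Averaged over genotypes it was higher in males by 0.21 ± 0.07 on the log2 scale (edgeR, adjusted p = 0.050, above the threshold before rounding). With a replicate block it was called (0.22, adjusted p = 0.032, edgeR), though replicate numbers pair males with females in H3.3WTH3.2K36R and H3.3WTH3.2HWT alone. Within H3.3CtrlH3.2HWT the male minus female difference was 0.47 ± 0.17 for TrpA1 (adjusted p = 0.13, edgeR) and 0.65 ± 0.24 for mfr (adjusted p = 0.13, edgeR). Both depended on 1 library: without replicate 1 of H3.3CtrlH3.2HWT females the differences were 0.92 for TrpA1 (edgeR, adjusted p = 4.0e-06) and 1.24 for mfr (edgeR, adjusted p = 0.00023). Without that library the average over genotypes for TrpA1 was 0.29 (edgeR, adjusted p = 7.0e-06). The remaining genes gave no called sex difference in these contrasts.

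On the chromosomes, the 10 genes lay on arm X (Rubicon and Mgstl), 3L (mthl8, pst, TrpA1 and mfr) and 3R (Ugt302K1, GILT3, ppk20 and ppk30). mthl8 was the first of 3443 table genes in order along 3L. The 3 nearest table genes on each side gave 46 distinct neighbours, of which 41 were tested. In the H3.3 mutant against its control, 11 of them were called in males, 8 in females and 8 in both sexes with the same sign, where 9.92%, 6.31% and 4.45% of all tested genes were. The neighbours called in both sexes lay near pst, GILT3, Mgstl and Ugt302K1, and none near Rubicon, mthl8 or the pairs high in the control. The 3 called in males alone were Ppt1 near Rubicon (log2 fold change -0.23), asRNA:CR44431 over Mgstl (-1.71) and CG4757 near Ugt302K1 (3.36), with adjusted p from edgeR of 0.040, 0.037 and 0.035.

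pst stood in a stretch where 3 of its 6 neighbours rose. asRNA:CR45822, the adjacent gene on the opposite strand, averaged 6.16 ± 2.28 CPM in H3.3K36RH3.2HWT males and 0.320 ± 0.106 in H3.3CtrlH3.2HWT males (SD, n = 3 each), with a log2 fold change of 4.27 ± 0.31 (SE, edgeR, adjusted p = 5.3e-11). In females it averaged 7.5 ± 2.10 CPM in the mutant and 0.159 ± 0.0335 in the control, with a log2 fold change of 5.55 ± 0.34 (edgeR, adjusted p = 9.3e-13). It also rose in Set21 over yw, by 6.08 ± 0.34 in males and 6.03 ± 0.34 in females (edgeR, adjusted p = 1.6e-14 and 3.6e-14). asRNA:CR45835, a gene beyond Sec63 on the other side of pst, rose by 2.20 ± 0.19 in males and 2.77 ± 0.19 in females of the H3.3 mutant, and by 2.54 ± 0.19 and 2.31 ± 0.19 in Set21 (edgeR, adjusted p at or below 7.0e-10). No source used here states the strand setting of the counting, so the values of these antisense RNAs are uncertain. Sec63, which encodes a subunit of the protein import channel of the endoplasmic reticulum, rose by 0.21 ± 0.04 and 0.26 ± 0.04 in the H3.3 mutant, and fell by 0.15 and 0.20 in Set21.

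Among the other called neighbours, Ugt35C1, a further UDP-glycosyltransferase 3 genes from Ugt302K1, rose by 2.12 ± 0.43 in males and 1.81 ± 0.42 in females of the H3.3 mutant (edgeR, adjusted p = 0.0012 and 0.0050). It averaged 0.838 ± 0.243 CPM in mutant males and 0.194 ± 0.0956 in control males. Unlike Ugt302K1 it was highest in the H3.2 mutant, at a mean of 1.59 CPM in H3.3WTH3.2K36R males, against 0.213 in H3.3WTH3.2HWT males. Ugt302E1, the nearest neighbour of Ugt302K1 on the other side, did not pass the filter, and Ugt302C1 was not called. Near Mgstl, Cbs (cystathionine beta-synthase) rose by 0.21 ± 0.05 and 0.26 ± 0.05, and Stt3A, a subunit of the enzyme that attaches glycans to asparagine, fell by 0.12 and 0.20 (edgeR, adjusted p at or below 0.0046). In both genes the mutant stood near yw. Cbs averaged 57.2 CPM in mutant males and 56.1 in mutant females, against 56.0 and 57.8 in yw. Stt3A averaged 264 and 274 CPM in the mutant, against 267 and 268 in yw. Near GILT3, CG10184 fell by 0.51 in males and 0.62 in females (edgeR, adjusted p = 0.049 and 0.019), and CG16710 fell by 0.92 and 0.96 (adjusted p = 0.0037 and 0.0031 by the same test). GILT2, the adjacent gene of the same family as GILT3, was not called (log2 fold changes of -0.22 ± 0.21 for males and 0.22 ± 0.21 for females).

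**Figure D5:**
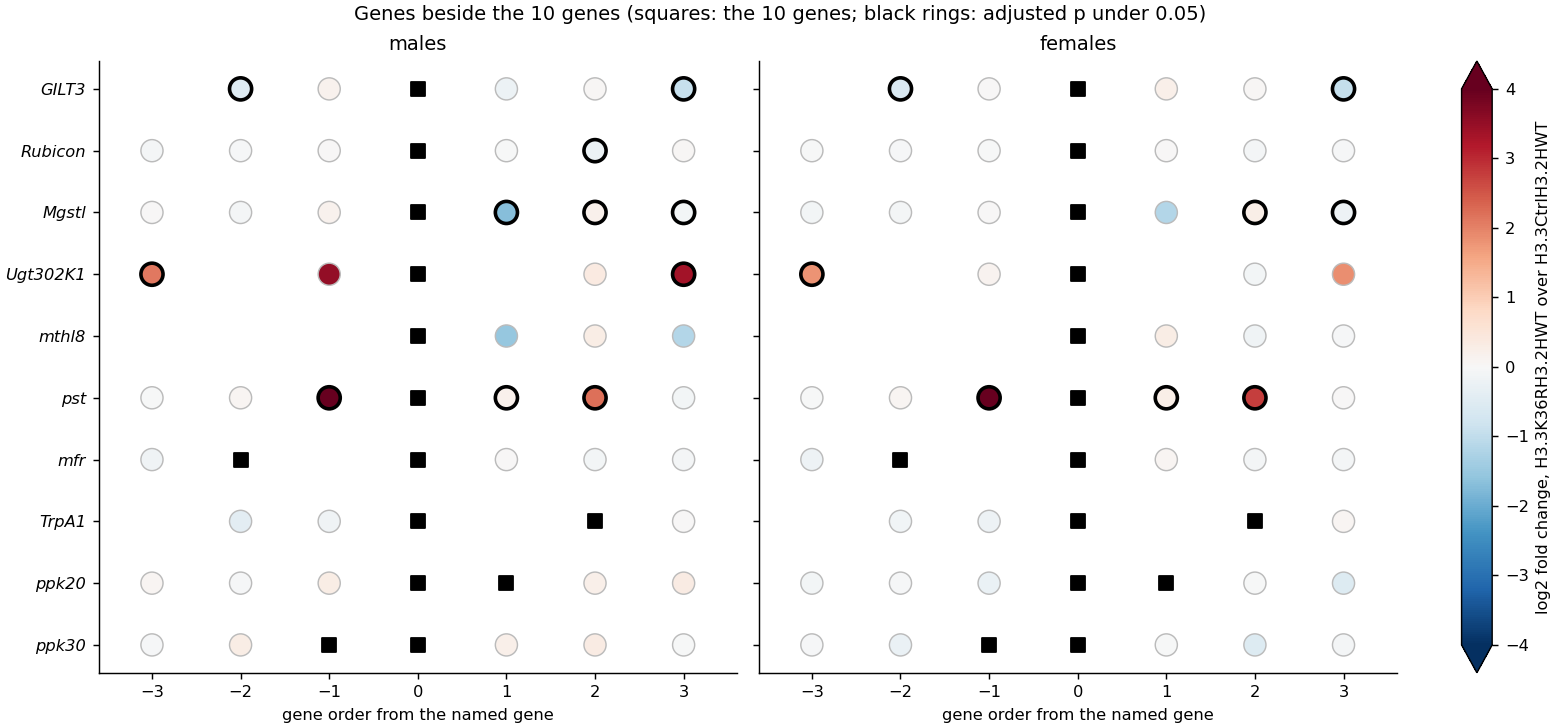
Log2 fold change of H3.3K36RH3.2HWT over H3.3CtrlH3.2HWT (colour) for the 3 nearest table genes on each side (x axis, gene order) of each of the 10 genes (rows, black squares), in males (left) and females (right); black rings mark adjusted p under 0.05 and gaps are genes that were not tested or, left of mthl8, the end of the table's gene order. Rings stand near pst, GILT3, Mgstl and Ugt302K1 in both sexes, and near Rubicon in males.

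Families of the 10 genes did not move as families in the H3.3 mutant. Of 17 other DEG/ENaC channels tested, 0 rose and 1 fell among males, while in females 1 rose and 1 fell. Of all tested genes 5.82% were higher and 4.1% lower in mutant males, and 3.4% were higher and 2.91% lower in mutant females. The 1 that fell in both sexes was ppk28, a channel for the taste of water, with a mean of 3.25 CPM in mutant males and 7.03 in control males (log2 fold change -1.11 ± 0.10, edgeR, adjusted p = 1.3e-09) and a log2 fold change of -0.69 ± 0.10 in females (edgeR, adjusted p = 9.3e-06). The channels' median log2 fold change was 0.29 for males and 0.12 for females, beside 0.00 for all tested genes in each sex. Of 11 other TRP channels, 2 rose in males and 0 in females. These were nompC, a touch channel (1.13 ± 0.27, adjusted p = 0.0055, edgeR), and wtrw (0.27 ± 0.09, adjusted p = 0.047, edgeR). Their mutant male means lay within the male means of yw, H3.3WTH3.2K36R and H3.3WTH3.2HWT. For nompC that was 1.47 CPM within 1.15 to 1.98, with control males lower at 0.674 CPM. For wtrw it was 25.7 CPM within 16.2 to 25.9.

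Among 13 other methuselah family receptors, mthl15 alone was called, and it rose by 0.57 ± 0.16 in males and 0.63 ± 0.16 in females (edgeR, adjusted p = 0.025 and 0.013). It rose in Set21 too, by 1.57 in males and 1.84 in females (edgeR, adjusted p = 6.2e-09 and 4.6e-10). Of 20 other UDP-glycosyltransferases only Ugt35C1 was called, in both sexes. Of 34 other glutathione transferases, 3 rose and 2 fell in males, while females had 3 of each direction. GstO3 rose by 1.01 ± 0.17 and 1.08 ± 0.17 (edgeR, adjusted p = 0.00013 and 5.8e-05) and GstT3 by 0.71 ± 0.12 and 0.69 ± 0.12 (adjusted p = 0.00014 and 0.00021 by the same test). GstD3 fell by 0.46 and 0.45 (edgeR, adjusted p = 0.0013 and 0.0019).

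In the remaining lists few genes were called. Of 12 other genes of the GILT family and the lysosome, 1 rose in males and 2 in females, and the cathepsin CtsB rose in both, by 0.21 ± 0.05 and 0.36 ± 0.05 (edgeR, adjusted p = 0.0020 and 2.0e-06). Of 26 autophagy genes other than Rubicon, males had 1 that rose and 2 that fell, and females 1 of each. Atg6, the fly counterpart of the Beclin 1 protein that mammalian Rubicon binds, rose by 0.12 ± 0.04 and 0.19 ± 0.04 (edgeR, adjusted p = 0.049 and 0.0018), and Atg101, of the complex that starts autophagy, fell by 0.22 and 0.15 (edgeR, adjusted p = 0.00096 and 0.039). Of 16 antiviral genes other than pst, males had 1 of each direction and females 1 that fell, with hop, the Janus kinase, falling in both by 0.11 and 0.12 (edgeR, adjusted p = 0.030 and 0.020). Of 8 tested sperm and testis genes other than mfr, 0 were called in males and can rose in females by 0.44 ± 0.11 (edgeR, adjusted p = 0.012). The median log2 fold change of these 8 genes was 0.35 for males and 0.27 for females, beside 0.00 for all tested genes. Apart from the DEG/ENaC channels, whose medians are given above, that of the other lists lay between -0.10 and 0.07.

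Genes outside the 10 with the most similar pattern were ranked by Pearson's r of log2 CPM over the 12 group means, 3 per gene, which gave 22 distinct genes. For GILT3 the nearest were CG15877, asRNA:CR45822 and Herc4 (r between 0.97 and 0.98), and Herc4, a ubiquitin ligase, averaged 191 CPM in H3.3K36RH3.2HWT, 132 in H3.3CtrlH3.2HWT, 219 in Set21 and 128 in yw. Ugt302K1 was nearest to CG34056, sturkopf and SiaT (r from 0.98 to 0.99), and CG34056 also led the list of pst, followed by CG32037 and CG15877. For mthl8 the nearest was Gr64a, a sugar taste receptor, with 2.11 CPM in H3.3K36RH3.2HWT, 0.109 in H3.3CtrlH3.2HWT, 0.694 in Set21 and 0.182 in yw, followed by CG17803 and CG9981.

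Rubicon was nearest to CG10508, lncRNA:CR45625 and Gmap (r between 0.96 and 0.97). Of these Gmap, a Golgi protein gene on the X, averaged 49.0 CPM in H3.3K36RH3.2HWT and 33.6 to 36.3 CPM in the other 5 genotypes. Mgstl was nearest to CG34138, ppk28 and org-1 (r between 0.94 and 0.96), and CG34138 averaged 0.0458 CPM in H3.3K36RH3.2HWT, 0.0676 in Set21 and 0.0217 in yw, against 8.58 to 16.6 CPM in the other 3 genotypes. The 4 genes high in H3.3CtrlH3.2HWT had aqrs in all of their lists, at under 0.1 CPM, and CG14445 in 3 of them. CG14445, on the X, averaged 0.235 CPM in H3.3K36RH3.2HWT, 12.95 in H3.3CtrlH3.2HWT and at most 1.16 CPM in the other genotypes. Of the 22 genes, 8 lay on X, 8 on 3L, 4 on 3R, 2 on 2R and 0 on 2L. Of the 17606 table genes, 2615 lay on X, 3443 on 3L and 4151 on 3R, and the spread over arms was not tested. The points are group means over shared libraries, and the lists changed with the choice of points: over the 36 single libraries pst kept 0 of its 3 genes, Ugt302K1 and TrpA1 kept 1, and the other 7 kept 2.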

How the data were processed

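Paired-end reads of 100 bases came from polyA-selected KAPA stranded mRNA libraries, per the labels' protocols. The authors deposited raw whole-number counts per gene, 1 column per library and without normalization. Per the submitters' processing notes, STAR (2.7.2a) and Subread (2.0.3) were used. Not given in the sources used here: genome build, annotation release, strand setting and handling of shared reads. Low values (1 to 4) were mostly even, 79.2% to 85.1% of them in each library, which happens where both mates of a pair count, and each unit is called a read.

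Symbols, arms and gene order came from Ensembl release 115 (17527 of 17606 identifiers matched, 79 did not, with 0.401% of reads). No coordinates or sequences are given. In R 4.3.3, edgeR 4.0.16 (filterByExpr with a minimum count of 10, TMM factors from 0.970 to 1.055) fitted 12 group means to 12167 genes by quasi-likelihood, with 24 residual degrees of freedom. Tests are 2-sided, with Benjamini-Hochberg adjustment over all tested genes and calls at 0.05. SE is the fold change over the root of the F statistic. Intervals of read ratios are exact (Clopper-Pearson) on reads taken as independent, so they are too narrow where both mates count. The floor of 3 reads per library has the same limit. The fit was tested on simulated data. No library pair within a group was a duplicate (chi-square over its degrees of freedom at least 8.19).

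The 10 genes, the lists and the tests were chosen with earlier results of these data known. Named genes are the 10, their 3 nearest genes by pattern, up to 3 called genes per family list (smallest p), and called neighbours. Of the list entries, 2 were not found and 1 was matched by an alias. Alternatives were RLE size factors, no filter, DESeq2 1.42.0, the compared libraries alone, a replicate block, and leaving out each library. Same-numbered libraries of H3.3WTH3.2K36R and H3.3WTH3.2HWT females correlated in their deviations from group means in every pair (r from 0.105 to 0.340), as did males with females of H3.3WTH3.2K36R (0.245 to 0.679) and of H3.3WTH3.2HWT (0.137 to 0.281), so their numbers were taken to pair them. In the other 9 comparisons they share a number only.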

Additional observations from a re-analysis of the deposited data

Results flagged for a closer look

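For Mgstl and Rubicon the gap between H3.3K36RH3.2HWT and its control differed between the sexes, by a test of the difference itself. That test shares its libraries with the contrast taken to have chosen the genes. For Mgstl the male gap minus the female gap was -0.53 on the log2 scale (edgeR, adjusted p = 4.9e-05), with log2 fold changes of -1.88 in males and -1.36 in females. Every H3.3K36RH3.2HWT male library, at 30.8 to 32.6 CPM, was below every female library, at 40.8 to 45.1 CPM, whereas control males and females overlapped. The same held in yw, which carries no K36R histone, with males at 33.6 to 34.3 CPM and females at 41.7 to 46.2 CPM. A lower level of Mgstl in males than in females is thus not particular to the H3.3 mutant. For Rubicon the difference was 0.47 (edgeR, adjusted p = 0.012), with log2 fold changes of 1.62 in males and 1.15 in females. The mutant males, at 62.7 to 64.6 CPM, all lay above the mutant females, at 48.6 to 54.9 CPM. Over the alternatives the adjusted p ran from 6.1e-11 to 0.010 for Mgstl and from 0.00035 to 0.20 for Rubicon. No formal test for outlying libraries was made in groups of 3.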

How the results depend on the processing

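Several counts of called genes moved by over 1.5 times. For the H3.3 mutant in females the count was 768, and 339 with only the compared libraries. In males it was 1207, and between 738 and 977 with 1 library left out, falling by over 1.5 times without replicate 2 of H3.3K36RH3.2HWT (738) or of H3.3CtrlH3.2HWT (788). Leaving out 1 library gave 570 to 707 in females. The interaction with sex, 22 genes, gave 13 with a replicate block, 12 with only the compared libraries, 45 with DESeq2 and 10 to 27 with 1 library left out. The male minus female count in H3.3WTH3.2HWT moved most, with 73 genes, 4 with only the compared libraries, 123 with DESeq2 and 22 to 90 with 1 library left out. The counts for Set21 over yw, H3.3WTH3.2K36R over H3.3WTH3.2HWT and the averaged sex contrast stayed within 1.5 times under every alternative run. No value of the 10 genes changed direction where it was called. In the H3.3 contrast 1 value moved by more than the spread between libraries, that of mfr in males (-11.39 without replicate 3 of H3.3K36RH3.2HWT, against -10.39), a fitted value that depends on the prior count. Apart from Ugt302K1 in H3.3WTH3.2K36R females, the replicate block moved 2 of the 10 genes over the threshold. These were TrpA1 in the averaged sex contrast (0.22, adjusted p = 0.032, edgeR) and Rubicon in Set21 males (-0.14, adjusted p = 0.050, edgeR). Libraries of Set21 and yw males share a number only, so the block is no pairing there. For the averaged sex contrast the numbers pair libraries in H3.3WTH3.2K36R and H3.3WTH3.2HWT alone. DESeq2 also called ppk20 in H3.3WTH3.2K36R males (log2 fold change 2.13, adjusted p = 0.041). The causes were not tested. Depth limits mfr, ppk20, ppk30 and mthl8 outside the groups where they are high, where libraries hold few or 0 reads.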
